A study of Mus musculus with 34 samples.

Results

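Oligodendrocytes wrap axons in myelin, and the 31 genes described here mark the steps by which these cells arise: 2 genes of precursors, 4 lineage transcription factors, 4 genes of newly formed cells and 21 genes of mature cells that make myelin. The genes were chosen by name, as symbols of the GENCODE M21 annotation, from the 54532 genes of a count table of the mouse dorsal hippocampus. All 31 were found, and all 31 were among the 22018 genes with enough counts to be tested. The groups were 4 homecage mice and 4 mice trained in spatial object recognition (SOR), a task in which a mouse explores glass objects at fixed places in an open field. All 8 mice were adult male C57BL/6J animals without a transgene or an injected virus, individually housed and handled on the days before the experiment, and the SOR mice were euthanized an hour after training. The SOR mice had also been habituated to the open field, so training and exposure to the arena cannot be told apart. Each library came from the dorsal hippocampus of 1 mouse, and p-values here measure the spread between these mice.

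A precursor carries the receptor PDGFRA and the proteoglycan NG2 on its surface, can divide, and persists in the adult brain. When it leaves the cell cycle it passes through a short premyelinating phase, in which *Gpr17*, *Enpp6*, *Bcas1* and *Itpr2* are on, and then turns on the proteins and lipids of the myelin sheath. *Olig1*, *Olig2* and *Sox10* act through much of this course, *Nkx2-2* around the onset of differentiation, and *Myrf* as the main activator of myelin genes. In the hippocampus, myelin lies mostly in the alveus, the fimbria and the layers of axons around the cell bodies.

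After SOR training, *Enpp6* fell from 14.5 ± 1.0 to 9.01 ± 0.977 CPM (counts of a gene scaled to the size of its library; mean ± SD, n = 4 mice per group), and it was the only gene of the 31 to pass the test (edgeR's quasi-likelihood test, adjusted p under 0.05 over all genes tested). In another 5 genes, *Opalin*, *Tmem125*, *Nkx6-2*, *Aspa* and *Sox10*, every SOR mouse lay below every homecage mouse, with log2 fold changes from -0.53 to -0.29, but none of them passed the adjusted test. The genes of the abundant myelin proteins, *Mbp*, *Mobp* and *Mal* among them, and the precursor genes *Pdgfra* and *Cspg4* showed smaller differences, and their groups overlapped. In bulk tissue, fewer cells of a type and less RNA per cell cannot be told apart.

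Of the 31 genes, 27 had a lower mean in SOR mice and 4 a higher one, while 56.2% of all genes tested were lower. The median log2 fold change, SOR over homecage, was -0.14 over the 31 genes and -0.02 over all genes tested. Without SOR replicate 3 the median of the 31 genes was -0.087, with 26 of them lower. Past the adjusted threshold, 1 of the 31 genes was lower, against 0.0363% of all genes tested, and 0 were higher, against 0.273%. Under the likelihood ratio test 5 were lower, against 0.313% of all genes tested, and 0 higher, against 0.659%. DESeq2 gave 5 lower, against 0.55%, and 0 higher, against 1.43%. *Enpp6* also exceeded the fold change of 1.4 used in the study. The adjusted threshold and this fold change together, in the lower direction, were passed by 0.0227% of all genes tested. At an unadjusted p under 0.05 in the same fit, 9 of the 31 were lower, against 5.51% of all genes tested, and 1, *Gpr17*, was higher, against 4.54%. Every SOR mouse lay below every homecage mouse in 6 of the 31 genes, against 3.96% of all genes tested, and the reverse held for 0, against 2.98%. The plot of fold changes shows these values with their intervals, ordered by stage.

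**Figure D1:**
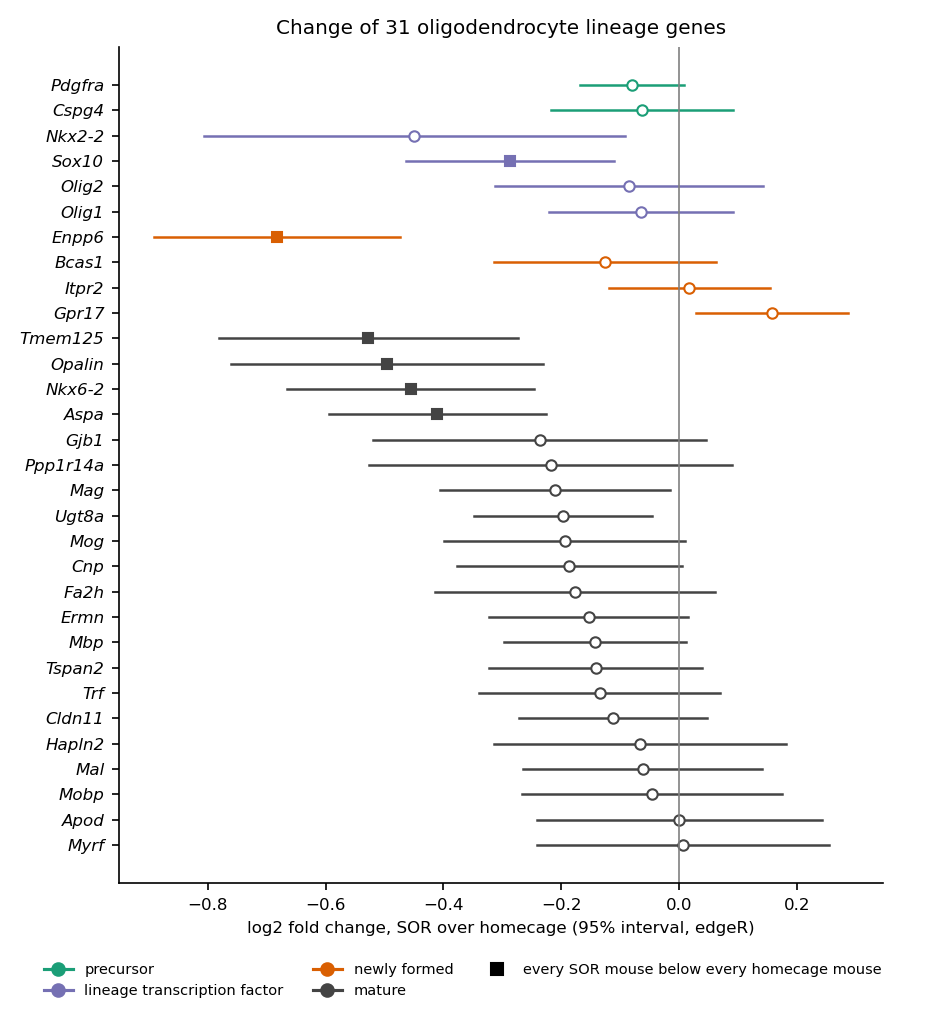
Log2 fold change of each of the 31 genes, SOR over homecage, on the horizontal axis, with the 95% interval from edgeR's quasi-likelihood fit as a line and the stage as the colour. Filled squares mark the 6 genes in which every SOR mouse lay below every homecage mouse. *Enpp6*, at -0.68, lies farthest to the left, and *Gpr17*, at 0.16, farthest to the right.

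The 6 genes without overlap are the ones the results turn on, and the sequences before their start sites are shown so that they can be compared with one another. RefSeq, on GRCm38.p6, gives such a sequence for 23 of the 31 genes and for 5 of these 6, and *Sox10* is 1 of the 8 genes without an entry. Each runs 5′ to 3′ on the gene's strand, from 250 bases before the start to 50 after it. Capitals mark matches, on either strand, to ACAAAG (the core of SOX sites), CAGCTG (an E-box, the kind of site bound by OLIG and other basic helix-loop-helix factors) and CTGGCAC (a MYRF motif).
*Enpp6* (chr8:46986637-46986936, plus strand): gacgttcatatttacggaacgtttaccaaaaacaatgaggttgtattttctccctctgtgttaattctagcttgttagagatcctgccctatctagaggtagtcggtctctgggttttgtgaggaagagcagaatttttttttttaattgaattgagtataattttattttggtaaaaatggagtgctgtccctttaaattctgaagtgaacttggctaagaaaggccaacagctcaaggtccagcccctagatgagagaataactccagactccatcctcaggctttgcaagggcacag
*Opalin* (chr19:41077064-41077363, minus strand): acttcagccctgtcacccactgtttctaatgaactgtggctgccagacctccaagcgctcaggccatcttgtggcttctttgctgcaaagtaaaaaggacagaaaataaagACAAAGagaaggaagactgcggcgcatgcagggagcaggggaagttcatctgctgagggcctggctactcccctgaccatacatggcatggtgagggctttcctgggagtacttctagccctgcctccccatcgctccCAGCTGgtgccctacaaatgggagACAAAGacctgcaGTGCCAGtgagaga
*Tmem125* (chr4:118543677-118543976, minus strand): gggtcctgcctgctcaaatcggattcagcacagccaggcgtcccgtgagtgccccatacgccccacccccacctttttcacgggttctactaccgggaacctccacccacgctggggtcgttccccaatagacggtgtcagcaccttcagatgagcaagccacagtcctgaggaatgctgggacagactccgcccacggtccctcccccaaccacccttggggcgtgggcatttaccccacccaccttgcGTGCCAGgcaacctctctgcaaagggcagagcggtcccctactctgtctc
*Aspa* (chr11:73324588-73324887, minus strand): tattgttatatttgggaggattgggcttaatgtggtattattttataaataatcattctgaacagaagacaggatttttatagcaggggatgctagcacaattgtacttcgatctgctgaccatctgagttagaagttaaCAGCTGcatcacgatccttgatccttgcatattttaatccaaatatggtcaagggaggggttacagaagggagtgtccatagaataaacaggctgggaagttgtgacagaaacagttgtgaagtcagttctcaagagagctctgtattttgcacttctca
*Nkx6-2* (chr7:139582748-139583047, minus strand): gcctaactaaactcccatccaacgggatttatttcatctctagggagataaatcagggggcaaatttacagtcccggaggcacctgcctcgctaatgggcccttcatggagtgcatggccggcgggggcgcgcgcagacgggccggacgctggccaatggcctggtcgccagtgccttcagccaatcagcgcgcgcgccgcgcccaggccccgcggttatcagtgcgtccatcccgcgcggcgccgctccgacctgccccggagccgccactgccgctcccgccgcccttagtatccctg
With 5 sequences, the counts of motifs are a description only. ACAAAG was found in 1 of the 5, in 7 of the 23 genes with a sequence and in 18.7% of all 32851 promoters of the same length in the table. CAGCTG was found in 2 of the 5, in 4 of the 23 and in 16.3% of all promoters. CTGGCAC was found in 2 of the 5, *Opalin* and *Tmem125*, in 5 of the 23 and in 5.01% of all promoters. The *Opalin* sequence held all 3 motifs, ACAAAG in 2 places, and the *Enpp6* and *Nkx6-2* sequences held none. Their base composition differed widely, since 39.0% of the bases of the *Aspa* window and 40.3% of the *Enpp6* window were G or C, against 66.7% for *Nkx6-2*, 62.7% for *Tmem125*, 54.3% for *Opalin* and a median of 52.7% over all promoters. The *Aspa* and *Tmem125* starts in RefSeq lie inside the longer gene models that GENCODE gives.

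*Enpp6* encodes a choline phosphodiesterase that is known as a mark of oligodendrocytes that have just begun to differentiate. The gene (ENSMUSG00000038173) lies on chromosome 8 of GRCm38 from 46986887 to 47096762, on the plus strand. It stood at 13.9, 15.9, 13.7 and 14.3 CPM in homecage replicates 1 to 4 and at 7.76, 9.82, 8.72 and 9.76 CPM in SOR replicates 1 to 4. The highest SOR mouse was therefore well below the lowest homecage mouse, and the values within each group were close together. The difference was a log2 fold change of -0.68 (standard error, SE, 0.0945; 95% interval -0.89 to -0.47, adjusted p = 0.0142). Behind these levels were 763.75 to 1140.82 estimated counts in homecage libraries and 496.96 to 576.57 in SOR libraries. *Enpp6* stayed past the threshold in all 11 alternative fits that kept every mouse. When 1 mouse was left out, it stayed past it in 5 of 8 fits, and the adjusted p rose to 0.0657 without homecage replicate 2, 0.0673 without homecage replicate 4 and 0.0541 without SOR replicate 3.

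The other genes of newly formed cells did not pass the test. *Gpr17*, which encodes a receptor that is on in late precursors and premyelinating cells and off in mature ones, stood at 49.7, 44.2, 50 and 42.8 CPM in homecage mice and at 52.8, 52.8, 49.6 and 53.1 CPM in SOR mice. The SOR mice were tightly grouped, and the groups overlapped only because SOR replicate 3 lay just below homecage replicates 1 and 3. Its log2 fold change was 0.16 (SE 0.0585, 95% interval 0.03 to 0.29), with an unadjusted p of 0.0212 and an adjusted p of 0.400 in edgeR's quasi-likelihood test. The exons of *Gpr17* overlap those of *Lims2* on the other strand, which stood at 7.12 to 9.83 CPM (log2 fold change -0.07). Whether the counting used strand is not given, and *Lims2* is also among the further lineage genes read below. *Bcas1*, whose protein marks cells that are laying down myelin, ranged from 220 to 243 CPM in homecage and from 175 to 243 CPM in SOR mice, and its log2 fold change was -0.13 (95% interval -0.31 to 0.06). *Itpr2*, which encodes a calcium channel of the endoplasmic reticulum, ranged from 42.4 to 51.1 CPM and from 45.7 to 50.7 CPM, and its log2 fold change was 0.02 (-0.12 to 0.16).

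A ratio of 2 genes within a mouse does not depend on how the libraries were scaled. *Enpp6* and *Gpr17* have the lowest and the highest fold change of the 31 genes, so their ratio is a description of that pair. *Enpp6* CPM came to 27.9%, 36.0%, 27.4% and 33.5% of *Gpr17* CPM in homecage mice and to 14.7%, 18.6%, 17.6% and 18.4% in SOR mice. The means were 31.2% ± 4.20 and 17.3% ± 1.80 (SD over 4 mice each). Within each mouse *Enpp6* was also lower relative to *Mbp*, to *Mag* and to *Pdgfra*, with differences between the group means of -0.54, -0.47 and -0.61 on the log2 scale and no overlap between the groups for any of the 3 ratios.

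**Figure D2:**
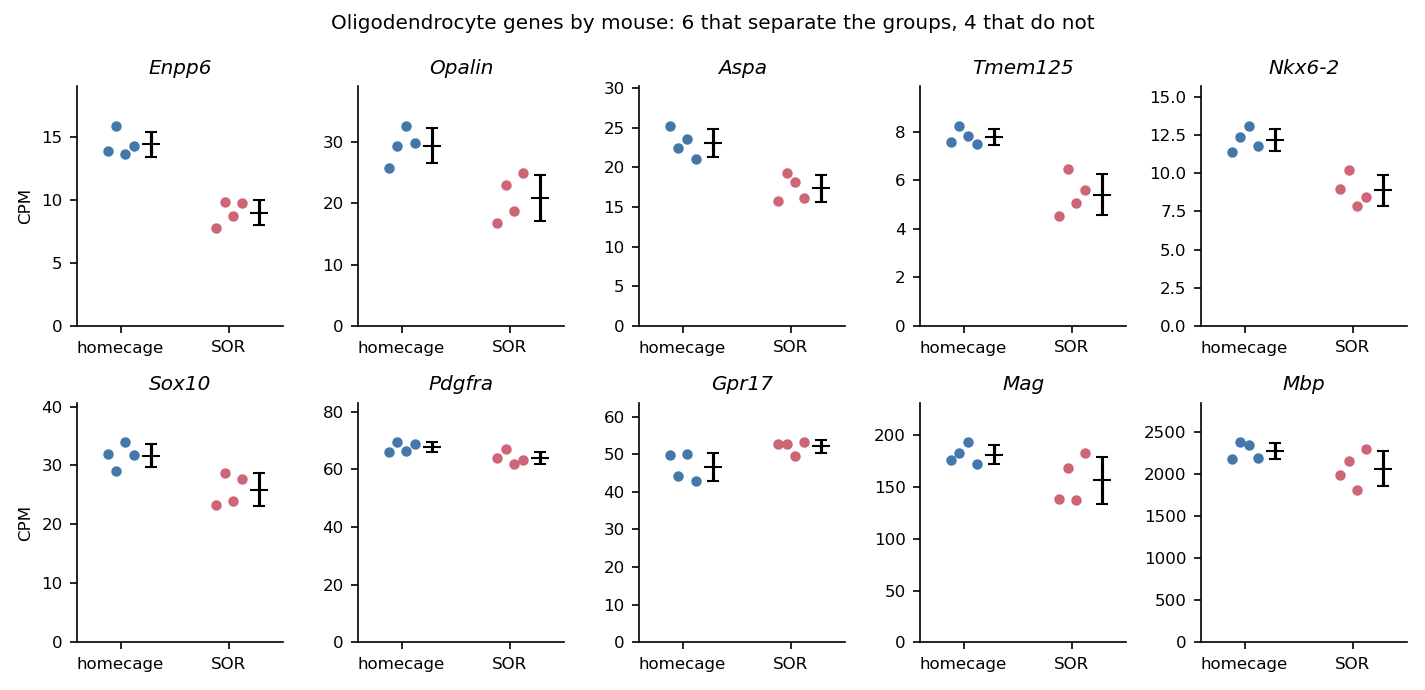
CPM of 10 genes in each mouse, with the axis starting at 0, homecage mice in blue, SOR mice in red, and the mean ± SD of each group (n = 4) beside them. In the panels from *Enpp6* to *Sox10* every SOR mouse is below every homecage mouse, and in the panels from *Pdgfra* to *Mbp* the groups overlap.

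Among the 21 genes of mature cells, 4 separated the groups with every SOR mouse lower, against 3.96% of all genes tested. *Opalin*, which encodes a membrane glycoprotein of central myelin (ENSMUSG00000050121, chromosome 19 from 41061710 to 41077113, minus strand), stood at 25.7, 29.4, 32.6 and 29.9 CPM in homecage mice and at 16.8, 23.0, 18.8 and 24.9 CPM in SOR mice. SOR replicate 4 came within 1 CPM of homecage replicate 1, so the groups were narrowly apart, and the log2 fold change was -0.50 (SE 0.120, adjusted p = 0.164). *Tmem125*, a gene for a transmembrane protein (ENSMUSG00000050854, chromosome 4 from 118540941 to 118544044, minus strand), stood at 7.59, 8.23, 7.83 and 7.48 CPM in homecage mice and at 4.53, 6.47, 5.05 and 5.58 CPM in SOR mice. The homecage mice hardly varied here, with an SD of 0.330 CPM around a mean of 7.78, against 5.41 ± 0.826 CPM in SOR mice (SD over 4 mice each), and the log2 fold change was -0.53 (SE 0.115, adjusted p = 0.122).

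*Aspa* encodes the enzyme that splits N-acetylaspartate into aspartate and acetate, a source of acetate for myelin lipids. The gene (ENSMUSG00000020774, chromosome 11 from 73304992 to 73329596, minus strand) stood at 25.2, 22.4, 23.5 and 21 CPM in homecage mice and at 15.8, 19.3, 18.1 and 16.1 CPM in SOR mice. The means were 23.0 ± 1.76 and 17.3 ± 1.66 CPM (SD over 4 mice each), for a log2 fold change of -0.41 (SE 0.0834, adjusted p = 0.0909). *Nkx6-2*, a homeobox factor of maturing oligodendrocytes (ENSMUSG00000041309, chromosome 7 from 139579376 to 139582797, minus strand), stood at 11.4, 12.4, 13.1 and 11.8 CPM and at 8.98, 10.2, 7.88 and 8.44 CPM in the same order. Its mean went from 12.2 ± 0.749 to 8.88 ± 0.998 CPM (SD over 4 mice each), for a log2 fold change of -0.46 (SE 0.0947, adjusted p = 0.102). Part of its exons overlap those of *Inpp5a* on the other strand, which stood at 18.7 to 24.8 CPM (log2 fold change 0.10), and whether the counting used strand is not given in the sources used here.

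*Opalin*, *Tmem125*, *Aspa* and *Nkx6-2* passed the adjusted threshold, together with *Enpp6*, under edgeR's likelihood ratio test, under DESeq2 and with 1, 2 or 3 factors of unwanted variation removed. The fits with factors removed also used the likelihood ratio test, which called these genes without any factor removed. Their calls are therefore not separate from that test. In the quasi-likelihood test these 4 genes missed the adjusted threshold with all mice and in each of the 8 fits without 1 of the mice.

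The genes of the compact sheath itself showed smaller differences. Per length, the highest of the 31 genes in homecage mice were *Mbp*, *Mobp* and *Mal*, which encode structural proteins of compact myelin, at 268, 193 and 152 CPM per kilobase of merged exons. *Mbp* counts also include the golli transcripts of the same gene, which other cells make. *Mbp* stood at 2180, 2370, 2340 and 2190 CPM in homecage mice and at 1980, 2150, 1810 and 2290 CPM in SOR mice. SOR replicate 4 lay among the homecage mice and the other SOR mice lay below them, so the groups overlapped, with means of 2272 ± 97.8 and 2058 ± 208 CPM (SD over 4 mice each) and a log2 fold change of -0.14 (95% interval -0.30 to 0.01). The intervals for *Mobp*, at -0.05 (-0.27 to 0.18), and *Mal*, at -0.06 (-0.26 to 0.14), reached further above 0.

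*Mag* and *Mog* encode adhesion proteins of the inner and the outermost face of the sheath. *Mag* stood at 176, 183, 193 and 172 CPM in homecage mice and at 138, 168, 137 and 183 CPM in SOR mice, and its log2 fold change was -0.21 (95% interval -0.41 to -0.01, adjusted p = 0.463). *Mog* stood at 47.5, 54.0, 50 and 46.2 CPM and at 40.3, 46.3, 36.4 and 50 CPM, and its log2 fold change was -0.19 (95% interval -0.40 to 0.01). In both, SOR replicates 1 and 3 were low and SOR replicate 4 sat inside the homecage range. *Cnp*, which encodes a phosphodiesterase of the cytoplasmic channels in myelin, had a log2 fold change of -0.19 (95% interval -0.38 to 0.00475). Its exons overlap those of *Dnajc7* on the other strand, which stood at 116 to 131 CPM (log2 fold change 0.01).

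Another 8 genes of mature cells, for lipids, junctions, transport and other functions, had log2 fold changes from -0.24 to -0.11. *Ugt8a* and *Fa2h*, which make the galactolipids of myelin, had log2 fold changes of -0.20 (95% interval -0.35 to -0.05, adjusted p = 0.365) and -0.18 (-0.41 to 0.06). *Gjb1*, the connexin of the channels that couple oligodendrocytes, and *Cldn11*, the tight junction protein that seals the layers of the sheath, had -0.24 (-0.52 to 0.05) and -0.11 (-0.27 to 0.05). *Trf*, which encodes transferrin, the iron carrier, had -0.13 (-0.34 to 0.07), and an annotated gene on the same strand, *Gm20425*, shares exons with it. *Ermn*, the gene of a cytoskeletal protein of late differentiation, had -0.15 (-0.32 to 0.02), *Tspan2*, a tetraspanin, -0.14 (-0.32 to 0.04), and *Ppp1r14a*, an inhibitor of myosin phosphatase, -0.22 (-0.53 to 0.09). None of these 8 genes passed the adjusted test, and the groups overlapped in each.

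In *Myrf* and *Apod* the estimate lay close to 0. *Myrf*, the activator of myelin genes, ranged from 17.4 to 21.8 CPM in homecage and from 16.6 to 23.1 CPM in SOR mice, and its log2 fold change was 0.01 (95% interval -0.24 to 0.25). *Apod*, which encodes the lipid carrier apolipoprotein D, had a mean of 116 CPM in either group, so that the log2 fold change was 0.000958, with an interval of -0.24 to 0.24. For *Hapln2*, a link protein of the matrix at nodes of Ranvier, it was -0.07 (-0.31 to 0.18). These intervals still allow changes as large as those of several genes named before.

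All 4 lineage transcription factors had lower means in SOR mice, by different amounts. *Sox10*, a factor of the whole lineage (ENSMUSG00000033006, chromosome 15 from 79154908 to 79165240, minus strand), stood at 31.9, 29.1, 33.9 and 31.7 CPM in homecage mice and at 23.3, 28.8, 23.9 and 27.7 CPM in SOR mice. SOR replicate 2 came close to homecage replicate 2, and the means of 31.6 ± 1.98 and 25.9 ± 2.74 CPM (SD over 4 mice each) gave a log2 fold change of -0.29 (SE 0.0798, adjusted p = 0.230). *Nkx2-2*, the lowest of the 31 genes, with 85.53 estimated counts in its shallowest library, ranged from 2.03 to 2.96 CPM in homecage and from 1.67 to 2.36 CPM in SOR mice. Its log2 fold change was -0.45, with a wide 95% interval of -0.81 to -0.09 and an adjusted p of 0.383. The exons of *Nkx2-2* overlap those of *Nkx2-2os* on the other strand, which stood at 0.242 to 0.836 CPM. The log2 fold change of *Nkx2-2os* was -0.71, not past the adjusted test, and its part in the *Nkx2-2* counts was not tested.

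*Olig2* stood at 12.5, 13.4, 11.5 and 11.9 CPM in homecage mice and at 12, 13.2, 9.5 and 11.8 CPM in SOR mice, and its neighbour *Olig1* ranged from 33.8 to 39.4 CPM and from 32.9 to 39.9 CPM. Apart from SOR replicate 3, the SOR values of *Olig2* lay within the homecage range. The log2 fold changes were -0.09 (95% interval -0.31 to 0.14) and -0.06 (-0.22 to 0.09).

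Precursor genes showed small differences. *Pdgfra*, the receptor for the growth factor that keeps precursors dividing, stood at 65.9, 69.3, 66.4 and 68.9 CPM in homecage mice and at 64.0, 66.9, 61.9 and 63.3 CPM in SOR mice. The groups overlapped through SOR replicate 2, and the 95% interval of the log2 fold change, -0.17 to 0.01 around -0.08, is narrow and lies above the whole interval of *Enpp6*. *Cspg4*, the gene of NG2, which pericytes also express, ranged from 12.8 to 13.6 CPM and from 12.1 to 13.9 CPM, and its log2 fold change was -0.06 (-0.22 to 0.09).

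By stage, the median log2 fold change was -0.07 over the 2 precursor genes, -0.19 over the 4 transcription factors, -0.05 over the 4 genes of newly formed cells and -0.18 over the 21 genes of mature cells. In the mature set 19 genes were lower and 2 higher, 6 of them lower at an unadjusted p under 0.05, and in the newly formed set 2 were lower and 2 higher. Over all genes tested, 56.2% were lower, and 5.51% were lower at an unadjusted p under 0.05. The mature median was -0.109 without SOR replicate 3, and the newly formed median ranged from -0.102 without SOR replicate 4 to -0.0248 without SOR replicate 3 when 1 mouse was left out. The medians describe small lists whose genes share cells, and no test was made of them.

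**Figure D3:**
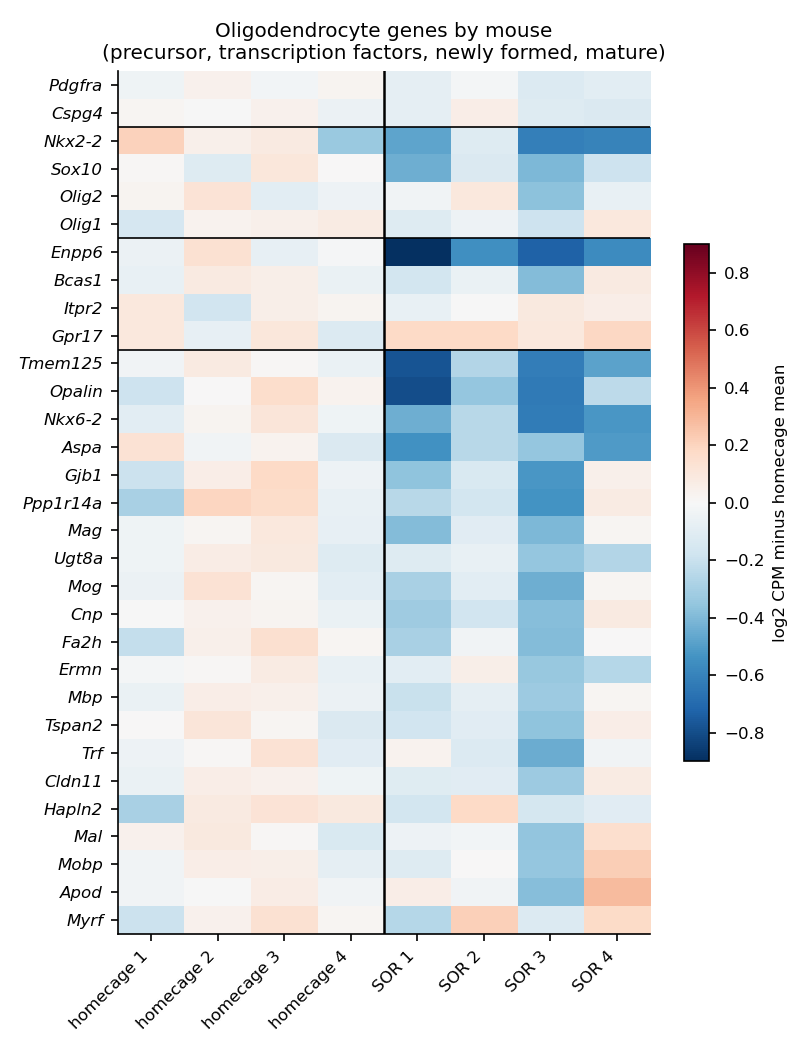
Each gene (rows, by stage, divided by horizontal lines) in each mouse (columns, homecage to the left of the vertical line), as log2 CPM minus the mean of the homecage mice, from blue (lower) to red (higher). *Enpp6*, *Tmem125*, *Opalin*, *Nkx6-2* and *Aspa* are blue in all 4 SOR mice, while most myelin genes are blue in SOR replicate 3 and near white or red in SOR replicate 4.

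The mice of a group did not stand at the same level across the myelin genes. The 21 mature genes summed to 5460, 5830, 5820 and 5340 CPM in homecage replicates 1 to 4 and to 5020, 5380, 4390 and 5900 CPM in SOR replicates 1 to 4. SOR replicate 4 was thus above every homecage mouse and SOR replicate 3 below all others, and the groups overlapped. SOR replicate 3 was the lowest SOR mouse for 16 of the 21 genes and SOR replicate 4 the highest for 13. Without SOR replicate 3 the log2 fold change was -0.087 for *Mbp*, -0.0458 for *Bcas1*, -0.0453 for *Cldn11*, -0.0429 for *Trf* and -3.15e-05 for *Olig2*, and without SOR replicate 4 it was -0.204 for *Bcas1*. In the homecage group, replicates 1 and 4 were the lowest for 9 and 12 genes and replicates 2 and 3 the highest for 9 and 11. All 31 genes together took 0.612% ± 0.0262 of the scaled library in homecage mice and 0.565% ± 0.0668 in SOR mice (SD over 4 mice each).

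Ratios within a mouse take this shared level out. *Opalin* relative to *Mbp* was lower in every SOR mouse than in every homecage mouse, with a difference between group means of -0.36 on the log2 scale, and the same held for *Tmem125* (-0.39) and *Nkx6-2* (-0.31). For *Aspa* and *Sox10* relative to *Mbp* the groups overlapped, with differences of -0.27 and -0.14. *Gpr17* relative to *Mbp* was higher in every SOR mouse, by 0.31, and relative to *Pdgfra* by 0.24. The separation depended on the reference gene: *Nkx6-2* relative to *Mag* (-0.24) and *Opalin* relative to *Pdgfra* (-0.43) overlapped between the groups. *Gpr17* had the highest fold change of the 31 genes, and the other genes set against a reference were taken because they were low in SOR mice. The ratios are therefore a description.

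**Figure D4:**
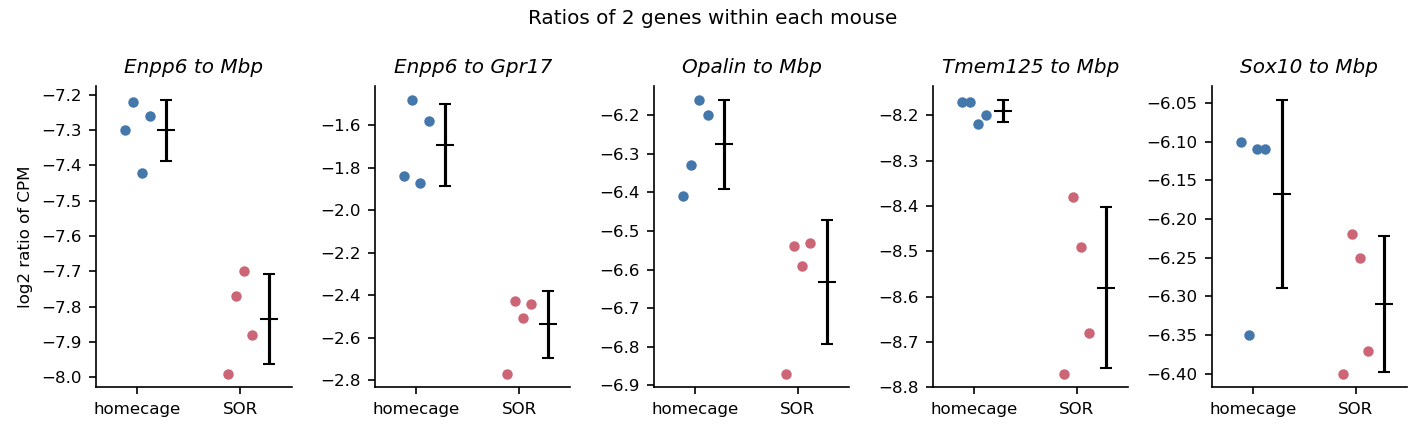
Log2 ratio of the CPM of a pair of genes within each mouse, homecage in blue and SOR in red, with the mean ± SD of each group (n = 4) beside the points. The axes do not start at 0, and CPM were not divided by gene length, so only the groups within a panel can be compared. The groups are apart in the panels from *Enpp6* to *Tmem125* and overlap for *Sox10* to *Mbp*.

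The genes that separated the groups were of low or middle level. Of the 11 genes at or above 100 CPM in homecage mice, 0 separated the groups, and their log2 fold changes lay between -0.21 and 0.000958. Of the 7 genes from 30 to 100 CPM, 1 did, and of the 13 genes under 30 CPM, 5 did, with a median log2 fold change of -0.24. Over all genes tested, whatever their level, every SOR mouse lay below every homecage mouse in 3.96%. Across the 31 genes the log2 homecage level and the log2 fold change had a Pearson r of 0.416 and a Spearman rho of 0.383, and across the 21 mature genes 0.493 and 0.529. Over all 13752 genes tested at or above the level of *Nkx2-2* the values were 0.0494 and 0.0874. These correlations run across genes of the same 8 libraries, which are not independent of one another.

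**Figure D5:**
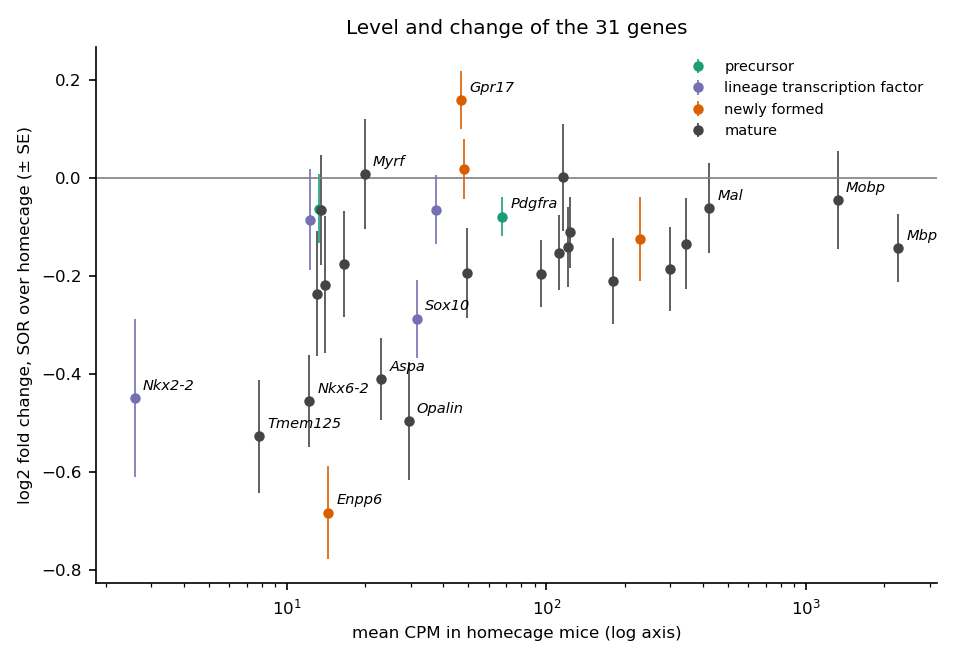
Mean CPM in homecage mice on a log axis against the log2 fold change, SOR over homecage, with its SE as a line, for the 31 genes coloured by stage. The genes below -0.3 all lie under 30 CPM, and the genes at or above 100 CPM lie between -0.21 and 0.000958.

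A further 42 genes of the lineage, not among the 31, were read in the same fit. Of these 29 were lower and 13 higher in SOR mice, while 56.2% of all genes tested were lower. The median of their log2 fold changes was -0.09. In the adjusted test 0 passed as lower, against 0.0363% of all genes tested, and 1 as higher, against 0.273%. The likelihood ratio test gave the same counts, against 0.313% and 0.659%, as did DESeq2, against 0.55% and 1.43%. The gene that passed was *Sgk1*, a kinase known to be induced by glucocorticoids. It stood at 54.6 ± 6.67 CPM in homecage mice and 139 ± 16.5 CPM in SOR mice (SD over 4 mice each). Its log2 fold change was 1.35 (adjusted p = 3.78e-04 in the quasi-likelihood test). It is on the list because the study placed it in this lineage, so its direction there is no independent evidence, and other cells express it too.

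Of the 10 precursor genes 4 were lower, with a median of 0.01, and of the 8 newly formed genes 5 were lower, with a median of -0.05. Of the 23 mature genes other than *Sgk1*, 20 were lower, 11 of them at an unadjusted p under 0.05 (5.51% of all genes tested), with a median of -0.16 and 0 past the adjusted test. In 5 of the 23, against 3.96% of all genes tested, every SOR mouse lay below every homecage mouse: *Septin4*, *Il33*, *Pllp*, *Gal3st1* and *Tmem63a*.

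Markers of other cells were read beside these genes. None of the lists held a gene past the adjusted threshold in edgeR's quasi-likelihood or likelihood ratio test. DESeq2 called only the endothelial gene *Cldn5*, as lower, a call it made for 0.55% of all genes tested. At an unadjusted p under 0.05 in the quasi-likelihood test there were 0 of 7 astrocyte genes, 0 of 7 neuron genes, 0 of 4 thalamus genes, 2 of 6 microglia genes and 1 of 4 endothelial genes, all 3 of these lower in SOR mice, as was the Schwann cell gene *Pmp22* (log2 fold change -0.19). Over all genes tested, 5.51% were lower and 4.54% higher at this unadjusted p. The astrocyte list had a median log2 fold change of 0.02, the neuron list -0.01, the thalamus list -0.03, the endothelial list -0.06, the microglia list -0.07, the red blood cell list 0.31 and the choroid plexus list 1.35, with all 4 genes higher in each of the last pair. In *Cldn5*, in *Pmp22* and in the Schwann cell sum every SOR mouse lay below every homecage mouse, as in the 6 oligodendrocyte genes. This held in 3.96% of all genes tested. The summed astrocyte level ranged from 4330 to 4540 CPM in homecage and from 4280 to 4630 CPM in SOR mice, the neuron level from 3260 to 3660 and from 3300 to 3570, the microglia level from 258 to 293 and from 251 to 282, the endothelial level from 97.2 to 115 and from 100 to 106, and the thalamus level from 75.3 to 90.1 and from 63.5 to 83.4. Choroid plexus genes varied most, from 24.0 to 1060 CPM in homecage and from 39.5 to 3890 CPM in SOR mice, with the highest sum in SOR replicate 1. Red blood cell genes ranged from 92.7 to 120 CPM and from 108 to 173 CPM, with 1 of 4 higher at an unadjusted p under 0.05 (4.54% of all genes tested). *Dhh*, which marks the Schwann cells of peripheral nerves, reached at most 0.148 CPM in any mouse, while the Schwann cell list as a whole, most of it *Pmp22*, ranged from 12.6 to 14 CPM in homecage and from 11.3 to 12.4 CPM in SOR mice. The part of these markers in the differences of the oligodendrocyte genes was not tested.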

How the data were processed

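RNA of the dorsal hippocampus of 8 mice was sequenced, with total counts per library from 51406011 to 81525977. The methods name a stranded kit for total RNA that removes ribosomal RNA, alignment with STAR to mm10 and gene counts with featureCounts within bcbio-nextgen, while the sample labels name polyA RNA. The deposited values are estimated counts per gene, which the authors summarized with tximport without normalization, and 52.6% of them are not whole. How this summary relates to the featureCounts output, and whether it was scaled by abundance, is not given in the sources used here.

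Gene names and positions came from GENCODE M21 on GRCm38, with a record for 54495 of 54532 genes. Counts were rounded, filtered with filterByExpr, scaled with upper-quartile factors and fitted with the quasi-likelihood test of edgeR 4.0.16 in R 4.3.3, with Benjamini-Hochberg adjustment over 22018 genes. The study used edgeR with RUVs, whose number of factors is not given. RUVs was therefore an alternative here, fitted with the likelihood ratio test, and was rebuilt because its package was not installed. Standard errors and 95% intervals came from the fold change and the F statistic. CPM used the scaled library sizes. As alternatives, libraries were scaled by TMM, by RLE or by their size alone, genes were kept at over 5 counts in 2 samples or not filtered, and the fit was replaced by the likelihood ratio test, DESeq2 1.42.0, 1 to 3 RUVs factors or a replicate block, and each mouse was left out. The fits were tested on simulated data. Python 3.11.15 with pandas 2.3.3 made the tables.

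Values in every mouse are given for the genes past the test, for those without overlap and for *Pdgfra*, *Gpr17*, *Mbp*, *Mog*, *Mag*, *Sox10* and *Olig2*, and the other genes are given by range or interval. The 5 further genes without overlap were named after their values were seen. The genes, the further lists and the tests were chosen with earlier results of these data known. Replicate numbers are shared between the groups, and no pairing of the mice is given in the sources used here. The correlation of deviations from the group means was -0.0837 to 0.073 for same-numbered mice and -0.2 to 0.194 for all other pairs. With so few mice these values cannot show whether the numbers pair the mice, and the main fit used no pairing.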

Additional observations from a re-analysis of the deposited data

Results flagged for a closer look

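A mouse far from the rest of its group was looked for in each of the 31 genes and both groups, 62 groups of 4 in all with Dixon's test at its 95% level, a level that chance exceeds in about 1 of 20 groups. It was found in 3. *Gpr17* was low in SOR replicate 3, at 49.6 CPM against 52.8 to 53.1 CPM in the other SOR mice. *Hapln2* was low in homecage replicate 1, at 11.0 CPM against 14.2 to 14.6 CPM, and high in SOR replicate 2, at 15.2 CPM against 12 to 12.5 CPM. The cause of these values was not tested.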

How the results depend on the processing

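The number of the 31 genes past the adjusted threshold was 1 in the quasi-likelihood fit, with every scaling and filter tried and with the replicate block, where *Enpp6* had an adjusted p of 0.037 from edgeR's quasi-likelihood test, and 5 under the likelihood ratio test, DESeq2 and 1, 2 or 3 RUVs factors. The RUVs fits used the likelihood ratio test as well, and all these settings called more genes over the whole table, 214, 435, 305, 500 and 508 against 68. With 1 mouse left out it ranged from 0 to 1, and it was 0 without homecage replicate 2, homecage replicate 4 or SOR replicate 3. The number of genes without overlap ranged from 6 to 10 with 1 mouse left out, 10 without SOR replicate 2 or SOR replicate 4. The share over all genes tested is not given for those fits, and groups of fewer mice separate more easily in any gene. The same 6 genes remained under TMM, RLE and library size scaling. The replicate block changed no gene's call. The sign turned only in genes near 0. *Apod* had a log2 fold change of -0.000547 without a filter, -0.0236 and -0.0261 with 2 and 3 RUVs factors and -0.0164 with the replicate block, and -0.109 to 0.110 with 1 mouse left out. The ranges with 1 mouse left out were -0.0358 to 0.052 for *Itpr2*, -0.141 to 0.0245 for *Mal*, -0.149 to 0.0439 for *Mobp* and -0.0652 to 0.0872 for *Myrf*. The causes were not tested. With 4 mice per group, a p that misses the threshold does not show that a gene was unchanged, and whole tissue does not show which cells a difference came from.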
